A study of Danio rerio with 24 samples.

Results

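Poly(A) RNA of zebrafish cells sorted as hematopoietic stem and progenitor cells (HSPC) at 3 days post fertilization (dpf) was compared with that of cells sorted as endothelial cells (EC) from the same stage. The comparison holds 4 of the 24 libraries of the series, 2 in each group, chosen by their labels. Of 25067 genes in the deposited table, 13145 had a mean of at least 1 FPKM (fragments per kilobase, scaled to the library total) over the 4 libraries and were tested. The HSPC and EC-labelled cells came from tails of fish with a pair of transgenes, kdrl:mCherry and CD41:GFP, in which the kdrl promoter drives mCherry in endothelium and the CD41 (itga2b) promoter drives GFP in blood progenitors and thrombocytes. No treatment or mutation is given, and both groups carry both reporters. Double-negative (DN) cells of the same tails, also in 2 libraries, and HSPC and EC libraries of 36 hours post fertilization (hpf) serve as points of comparison. The sample titles name the caudal hematopoietic tissue at 3 dpf and not at 36 hpf, so a difference of dissection and one of stage cannot be told apart. Nothing states that replicates came from separate clutches or sorts, and the p-values therefore cover the spread of these libraries alone, which may be technical.

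The caudal hematopoietic tissue is a venous plexus in the tail where blood stem and progenitor cells of the fish embryo lodge and divide, much as they do in the mammalian fetal liver. Progenitors there depend on transcription factors such as Runx1, Myb and Gata2b, and give rise to red cells, myeloid cells, thrombocytes and the progenitors that seed the thymus. The vessel cells around them are usually recognised by the VEGF receptor Kdrl and by junction and scavenger receptor genes.

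The genes behind the sort were read first. kdrl, the receptor whose promoter marks the endothelial sort, was listed at 0 in both HSPC libraries, against 0.333 and 0.323 FPKM in the EC-labelled libraries. The DN libraries held 0.257 and 0.387 FPKM of kdrl, and the EC libraries of 36 hpf held 5.16 and 3.68 FPKM. The EC-labelled libraries at 3 dpf therefore held kdrl at the level of the DN cells, against what their label implies, and they are called EC-labelled throughout. itga2b, the integrin subunit CD41, measured 6.54 and 7.98 FPKM in HSPC and 6.55 and 5.72 FPKM in EC-labelled libraries, against 0.0708 and 0 FPKM in DN libraries. Its difference did not pass the test (log2 fold change 0.21 ± 0.32, SE, limma with Benjamini-Hochberg adjusted p = 0.687).

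The files gave 9840488 and 9401773 reads in the HSPC libraries and 10234298 and 13155373 in the EC-labelled libraries. Genes above 0 numbered 13459 and 13274 in HSPC, against 18954 and 21136 in EC-labelled libraries. Mitochondrially encoded genes took 13.97% and 13.15% of the FPKM in HSPC and 4.23% and 7.27% in EC-labelled libraries. Across the genes tested, which are not independent replicates, the Spearman correlation was 0.852 within the HSPC pair, 0.897 within the EC-labelled pair and 0.771 to 0.818 between the groups.

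Fold changes below are HSPC over EC-labelled on the log2(FPKM + 1) scale, with ± their standard error from limma, which understates the change of genes with low values. FPKM are given as replicate 1 and replicate 2 (n = 2 per group). Calls required an adjusted p (Benjamini-Hochberg) under 0.05 together with a change of at least 1 on that scale. By limma 2174 genes (16.5% of those tested) were called, 267 of them (2.03%) higher in HSPC and 1907 (14.5%) lower. The median gene lay at -0.22 (-0.09 with median-of-ratios scaling, -0.29 with a common FPKM sum, -0.31 with limma-voom), so changes are to be read against a shift of that size. Of the 1907 genes that fell, 536 were listed at 0 in both HSPC libraries. Genes at 0 in both HSPC libraries passed the filter through the EC-labelled libraries alone and could only be lower in HSPC.

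The spread behind these tests was shared over 14 tail libraries in 7 groups, and the HSPC pair was more variable than that. The root mean square SD between replicates was 0.69 on the log2 scale in HSPC and 0.50 in EC-labelled libraries, against 0.26 to 0.43 in the other 5 groups. A fit of the 6 libraries of 3 dpf called 57 genes higher and 724 lower, all of them also called by the shared fit, and its counts are given for the lists below. A fit of only the 4 libraries called 9 higher and 143 lower, and a fit of all 24 libraries called 14 higher and 181 lower. List counts from these fits are to be read against these totals over the 13145 genes tested. The shares of 2.03% and 14.5% belong to the shared fit alone.

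**Figure D1:**
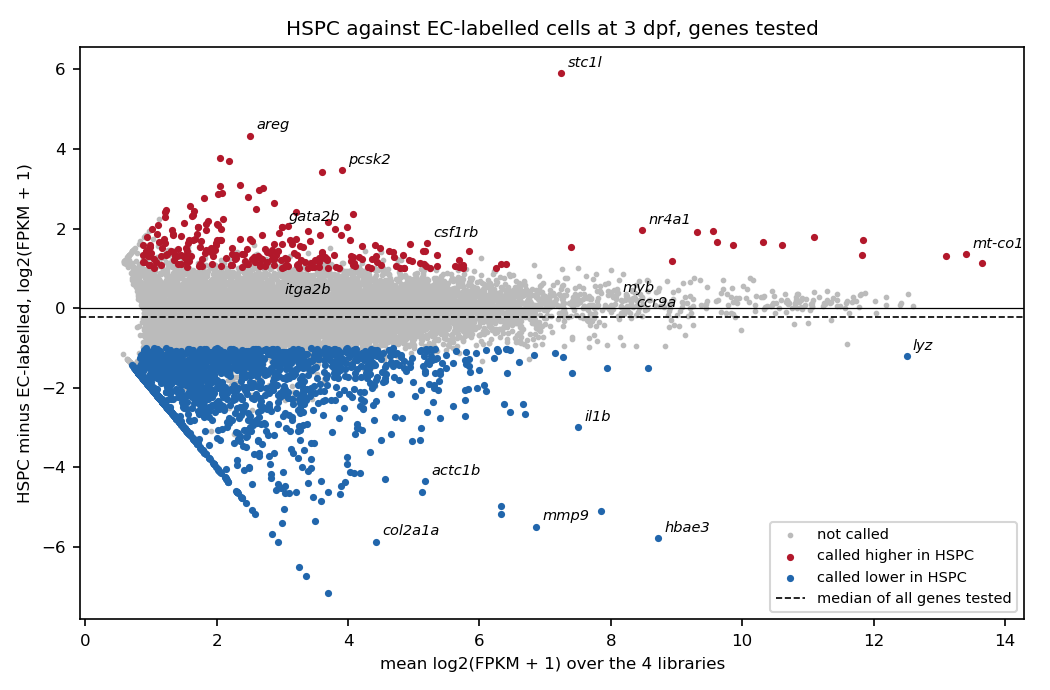
Each point is 1 gene tested, with its mean log2(FPKM + 1) over the 4 libraries on the x axis and HSPC minus EC-labelled on the y axis. Genes called higher (267) are red, genes called lower (1907) are blue, and the dashed line is the median of all genes (-0.22).

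The genes with the largest increase in HSPC were a group of hormone, epithelial and growth factor genes. stc1l encodes a stanniocalcin, a hormone of the corpuscles of Stannius that lowers calcium uptake in fish, and measured 1181 and 1169 FPKM in HSPC libraries, against 10.3 and 32.8 FPKM in EC-labelled libraries. It rose by 5.91 ± 0.52 (adjusted p = 2.05e-05) and was the largest increase among the genes named here. areg, the EGF receptor ligand amphiregulin, measured 28.9 and 20.7 FPKM in HSPC and 0.416 and 0.127 FPKM in EC-labelled libraries (4.33 ± 0.34, adjusted p = 8.33e-06). cdh16, a kidney-type cadherin, measured 12.4 and 16.7 FPKM in HSPC and 0.0698 and 0.163 FPKM in EC-labelled libraries (3.79 ± 0.32, adjusted p = 1.37e-05). areg and cdh16 were called under each of the 14 alternatives tried, and stc1l under all but the fit of 24 libraries. fgf23, a phosphate-regulating hormone, measured 13.2 and 18.1 FPKM in HSPC and 0 and 0.579 FPKM in EC-labelled libraries (3.71 ± 0.34). pcsk2, the prohormone convertase that cuts peptide hormone precursors, measured 42.4 and 56.7 FPKM in HSPC and 2.15 and 5.48 FPKM in EC-labelled libraries (3.47 ± 0.31).

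Not all of these genes were low in DN cells. pcsk2 was at 39.3 and 33.6 FPKM in DN libraries, close to HSPC, whereas stc1l was at 13.8 and 17.5 FPKM there. The corpuscle of Stannius and pronephros list had 25 genes in the table, of which 15 were tested. These 5 genes rose, against 2.03% of all genes. The list was made with earlier results of these data known, so this count is no separate support for the increases. Another 2 fell, against 14.5% of all genes, the receptor ret (-2.24) and the salt transporter slc12a3 (-1.96), both listed at 0 in HSPC. The other 8 did not pass, and the list's median was -0.25, close to that of all genes. In the fit of 3 dpf alone 5 rose and 1 fell, and without EC-labelled replicate 1 the list had 5 lower genes. The kidney-lineage factors pax2a (6.94 and 1.59 FPKM in HSPC, 2.97 and 6.81 in EC-labelled) and pax8 (1.03 and 3.8, against 4.07 and 8.18) overlapped or lay lower in HSPC without passing the test. Whether cells of another kind within the CD41 gate took part in these increases was not tested.

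Other genes with large increases had varied roles. cox4i2, an isoform of a cytochrome c oxidase subunit, measured 12.4 and 15.7 FPKM in HSPC and 0 and 2.05 FPKM in EC-labelled libraries (3.098 ± 0.50, adjusted p = 0.00121). frzb, a secreted Wnt inhibitor, measured 13.6 and 13.9 FPKM in HSPC and 0.555 and 1.9 FPKM in EC-labelled libraries (2.79 ± 0.34), with 18.9 and 13.7 FPKM in DN cells. tbxa2r, the thromboxane A receptor, measured 9.34 and 7.16 FPKM in HSPC and 0.321 and 0.374 FPKM in EC-labelled libraries (2.77 ± 0.53). The groups did not overlap for any of these, as the rule that named them required. Of all 13145 genes tested, 2101 had no overlap with HSPC higher and 4436 with HSPC lower. The sodium pump subunit atp1a1a.2 (2.44 ± 0.37), npdc1a (2.41 ± 0.41), the complex III assembly factor lyrm7 (2.36 ± 0.47), the ER membrane complex subunit emc4 (2.24 ± 0.53), the scaffold gene lin7a (2.18 ± 0.44), sftpba (2.12 ± 0.50) and the troponin tnnt2d (2.102 ± 0.38) also rose. The calls of emc4 and sftpba were lost without EC-labelled replicate 1, and those of emc4, lin7a and sftpba in the fit of 3 dpf alone.

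**Figure D2:**
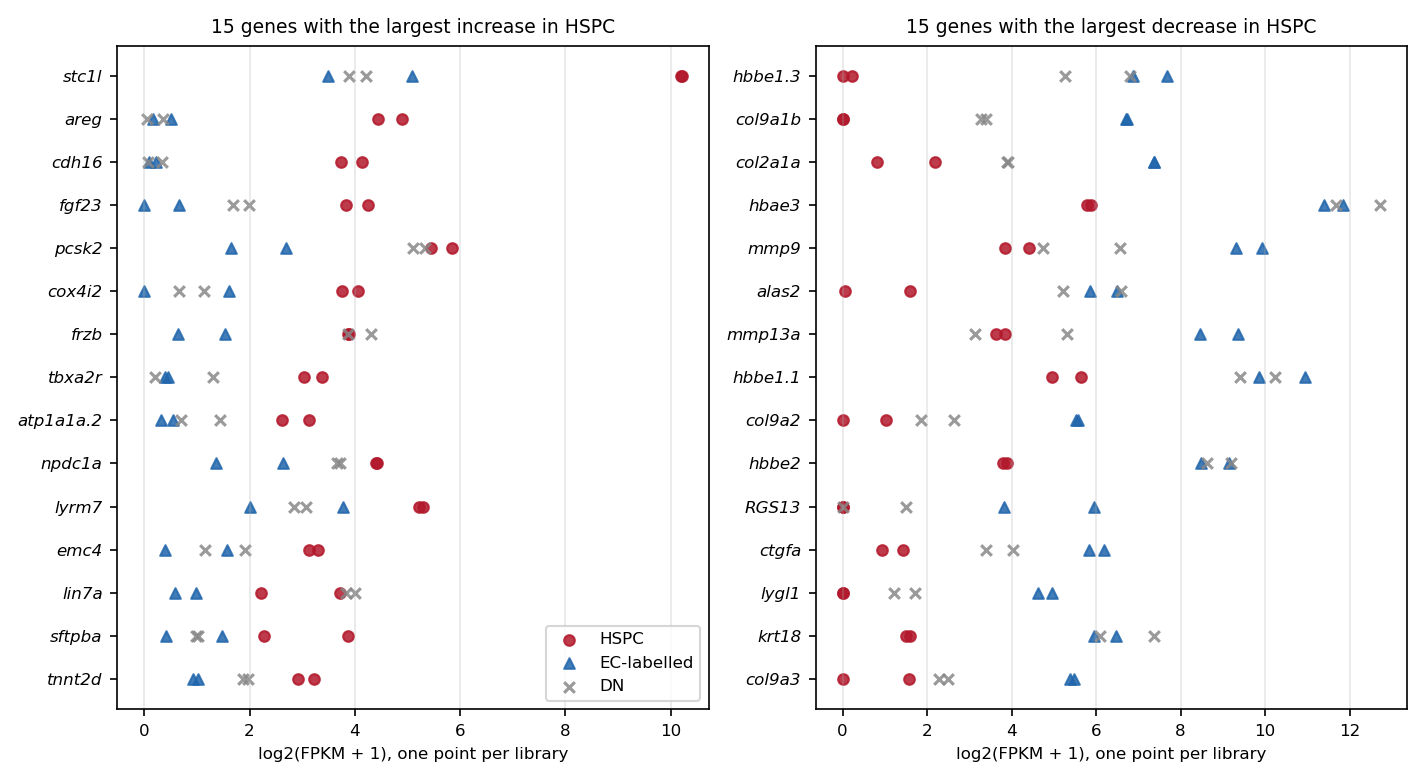
FPKM on a log2(FPKM + 1) axis of the 15 named genes with the largest increase (left) and the 15 with the largest decrease (right), 1 point per library for HSPC (red circles), EC-labelled (blue triangles) and DN cells (grey crosses). stc1l stands at 1181 and 1169 FPKM in HSPC, and the globins hbae3, hbbe1.1 and hbbe2 overlap between EC-labelled and DN libraries.

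All but 1 of the 13 mitochondrially encoded genes rose in HSPC, 12 of 13 against 2.03% of all genes. These genes make up the mitochondrial share of each library given above, and their calls are not independent of each other. The list's median was 1.60. mt-nd6, a subunit of complex I, measured 1679 and 1303 FPKM in HSPC and 274 and 536 FPKM in EC-labelled libraries (1.95 ± 0.29, adjusted p = 0.000652). mt-atp6, a subunit of ATP synthase, measured 6693 and 6544 FPKM in HSPC and 1247 and 3245 FPKM in EC-labelled libraries (1.72 ± 0.35). The EC-labelled pair was itself spread, with replicate 1 the lower for each gene given here. The count was 7 in the fit of 3 dpf alone and 6 without EC-labelled replicate 1, and 0 in the fit of 24 libraries. The DN libraries held 9.46% and 5.69% of their FPKM on mitochondrial genes. Whether RNA quality or the state of the sorted cells moved with this was not tested.

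Stem cell regulators passed the test about as often as all genes, 4 of 22 against 16.5%. myb, needed for definitive stem cells, measured 294 and 291 FPKM in HSPC and 271 and 227 FPKM in EC-labelled libraries (0.24 ± 0.32, adjusted p = 0.647). runx1, which drives the emergence of stem cells from endothelium, measured 38.2 and 40.2 FPKM in HSPC and 38.9 and 23.7 FPKM in EC-labelled libraries (0.36 ± 0.48, adjusted p = 0.646). tal1, a factor of early blood specification, measured 99.9 and 115 FPKM in HSPC and 102 and 107 FPKM in EC-labelled libraries (0.04 ± 0.17, adjusted p = 0.895). In DN libraries myb was at 4.92 and 3.03 FPKM, so both sorts held it far above the DN level. Of 26 regulators listed, 22 were tested, of which 2 rose, 2 fell and 18 did not pass, with a median of 0.11. Over all genes 2.03% rose and 14.5% fell.

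The regulators that rose were gata2b and zfpm1. gata2b, a factor of hemogenic endothelium and stem cells in zebrafish, measured 9.56 and 23.8 FPKM in HSPC and 2.25 and 3.81 FPKM in EC-labelled libraries (2.03 ± 0.42, adjusted p = 0.00515). zfpm1, the GATA cofactor Fog1, measured 38.4 and 28.1 FPKM in HSPC and 12.3 and 12.9 FPKM in EC-labelled libraries (1.32 ± 0.25, adjusted p = 0.00326). The groups did not overlap for either gene, as for 2101 of the 13145 genes tested in that direction. The HSPC pair differed widely for gata2b. spi1b, the myeloid factor PU.1, fell to 14 and 18.1 FPKM in HSPC, against 57.2 and 43.6 FPKM in EC-labelled libraries (-1.59 ± 0.34). gfi1b, a transcriptional repressor that acts within the erythroid and megakaryocyte lineages, fell to 13.2 and 18.8 FPKM in HSPC, against 47.1 and 41 FPKM in EC-labelled libraries (-1.42 ± 0.40). In the fit of 3 dpf alone 1 regulator rose and 1 fell, the calls of gata2b and gfi1b being lost, and without EC-labelled replicate 1 neither spi1b nor gfi1b passed. gfi1b was also lost without EC-labelled replicate 2 and without HSPC replicate 1.

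A few further blood genes were read singly, of which csf1rb, csf1ra, gata1b and kita were named after their values were seen. The same holds for myb, runx1 and tal1 above. csf1rb, a receptor for colony stimulating factor 1, measured 71.1 and 57 FPKM in HSPC and 20.2 and 19.4 FPKM in EC-labelled libraries (1.64 ± 0.24, adjusted p = 0.000588). nr4a1, an orphan nuclear receptor of the immediate early class, measured 708 and 693 FPKM in HSPC and 89.5 and 358 FPKM in EC-labelled libraries (1.96 ± 0.50), a call lost without EC-labelled replicate 1. gata1b, a paralog of the erythroid factor Gata1, measured 64.9 and 63.5 FPKM in HSPC and 31.6 and 19.6 FPKM in EC-labelled libraries (1.33 ± 0.35), a call lost without EC-labelled replicate 2. The calls of nr4a1 and gata1b were lost in the fit of 3 dpf alone. csf1rb, nr4a1 and gata1b had no overlap between the groups, as had 2101 of the 13145 genes tested in that direction. csf1ra, the paralog of csf1rb, fell to 0.49 and 0 FPKM in HSPC, against 5.62 and 15.1 FPKM in EC-labelled libraries (-3.08 ± 0.42, adjusted p = 0.000425). The kit receptor kita, at 31.9 and 16.6 FPKM in HSPC and 12.6 and 12.6 FPKM in EC-labelled libraries, did not pass (0.82 ± 0.31, adjusted p = 0.087).

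Of 18 thrombocyte genes, 16 were tested, of which 1 rose, 4 fell and 11 did not pass (median -0.14). Over all genes 2.03% rose and 14.5% fell, with a median of -0.22. rasgrp2, an exchange factor for the integrin-activating GTPase Rap1, measured 59.8 and 56.6 FPKM in HSPC and 23 and 19.2 FPKM in EC-labelled libraries (1.43 ± 0.27). fgl2a fell to 3.18 and 3.96 FPKM in HSPC, against 36 and 18.6 FPKM in EC-labelled libraries (-2.57 ± 0.46). The thrombopoietin receptor mpl measured 19.6 and 23.3 FPKM in HSPC and 8.12 and 5.77 FPKM in EC-labelled libraries and did not pass (1.51 ± 0.52, adjusted p = 0.0636). Lower calls numbered 2 in the fit of 3 dpf alone, and 2 without EC-labelled replicate 1 or without HSPC replicate 1.

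Endothelial genes were low in both sorts, at a mean log2(FPKM + 1) of 0.93 and 0.98 in HSPC and 1.46 and 1.54 in EC-labelled libraries. The DN libraries averaged 1.04 and 1.02, so for this list, unlike kdrl, the EC-labelled libraries lay above DN. Of 34 such genes, 16 were tested, of which 1 rose, 6 fell and 9 did not pass. Over all genes 2.03% rose and 14.5% fell. The list's median was -0.21 beside -0.22 over all genes. aqp1a.1, a water channel of vessels and red cells, fell to 5.02 and 10.4 FPKM in HSPC, against 48.4 and 32.5 FPKM in EC-labelled libraries (-2.30 ± 0.44, adjusted p = 0.0035). dll4, an arterial Notch ligand, was listed at 0 in both HSPC libraries, against 2.03 and 2.9 FPKM in EC-labelled libraries and 26.4 and 20.2 FPKM in DN libraries. The scavenger receptor stab2 measured 0.176 and 0 FPKM in HSPC and 2.49 and 2.66 FPKM in EC-labelled libraries (-1.72 ± 0.30). The receptor kdr, a paralog of kdrl, rose to 2.06 and 2.19 FPKM in HSPC, against 0.0545 and 0.523 FPKM in EC-labelled libraries (1.303 ± 0.38), a call lost without EC-labelled replicate 1. fli1a, an ETS factor shared by vessels and blood, measured 48.6 and 33.8 FPKM in HSPC and 31.7 and 32.7 FPKM in EC-labelled libraries (0.32 ± 0.32, adjusted p = 0.522). The fit of 3 dpf alone called 2 of the list lower and none higher.

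Larval red cell genes were far lower in HSPC. Of 8 embryonic and larval globin genes tested 7 fell, against 14.5% of all genes, with a median of -4.80 (-5.03 with genes listed at 0 in both HSPC libraries set to a floor of 3 reads over the pair). hbae3, an alpha-type globin, measured 57.9 and 54.1 FPKM in HSPC and 2692 and 3644 FPKM in EC-labelled libraries (-5.78 ± 0.26, adjusted p = 1.71e-07). hbbe1.1, a beta-type globin, measured 30.3 and 49 FPKM in HSPC and 925 and 1960 FPKM in EC-labelled libraries (-5.09 ± 0.37). The DN libraries held hbae3 at 3297 and 6754 FPKM, a range that overlaps the EC-labelled one. Counts of near-identical globin copies may have been split, so values of single globin genes are uncertain. The fit of 3 dpf alone called 6 of the 8 lower and that of 24 libraries 5. Bulk libraries cannot tell fewer red cells from less globin RNA per cell.

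The rest of the erythroid program differed gene by gene. Of 15 heme synthesis genes tested 5 fell, against 14.5% of all genes, and 10 did not pass (median -0.76, 4 lower in the fit of 3 dpf alone). alas2, whose enzyme starts heme synthesis in red cells, measured 2.04 and 0.0338 FPKM in HSPC and 56.5 and 88.5 FPKM in EC-labelled libraries (-5.34 ± 0.49, adjusted p = 2.64e-05). alas1, its ubiquitous paralog, measured 96.1 and 105 FPKM in HSPC and 247 and 223 FPKM in EC-labelled libraries (-1.22 ± 0.30), a call lost without EC-labelled replicate 1. Of 20 red cell membrane, iron and regulator genes tested 6 fell, against the same 14.5%, and 14 did not pass. Their median was -0.49, and 2 were lower in the fit of 3 dpf alone, which called 724 of all 13145 genes lower. cahz, the carbonic anhydrase of fish red cells, measured 3.39 and 1.61 FPKM in HSPC and 46.2 and 104 FPKM in EC-labelled libraries (-4.38 ± 0.41). slc4a1a, the band 3 anion exchanger of the red cell membrane, measured 365 and 439 FPKM in HSPC and 492 and 635 FPKM in EC-labelled libraries and did not pass (-0.48 ± 0.34, adjusted p = 0.35). gata1a, the main erythroid factor, measured 23.7 and 32.7 FPKM in HSPC and 21 and 46.8 FPKM in EC-labelled libraries (-0.17 ± 0.42, adjusted p = 0.814).

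Neutrophil genes were among those that fell in HSPC, the secreted proteases with the largest changes. Of 28 tested 15 fell, against 14.5% of all genes, 13 did not pass and the median was -1.42. mmp9, a gelatinase, measured 20.1 and 13.3 FPKM in HSPC and 964 and 632 FPKM in EC-labelled libraries (-5.49 ± 0.61, adjusted p = 0.000103). mmp13a, a collagenase, measured 11.4 and 13.3 FPKM in HSPC and 660 and 353 FPKM in EC-labelled libraries (-5.18 ± 0.74). lyz, lysozyme, stayed abundant in both groups, with 3949 and 3683 FPKM in HSPC and 9112 and 8522 FPKM in EC-labelled libraries (-1.21 ± 0.27). mpx, myeloperoxidase, measured 98.4 and 92.2 FPKM in HSPC and 261 and 339 FPKM in EC-labelled libraries (-1.63 ± 0.27). The groups did not overlap for any of these 4 genes, as for 4436 of the 13145 genes tested in that direction. The lyz call was lost without EC-labelled replicate 1. The chemokine receptor cxcr4b, at 167 and 225 FPKM in HSPC and 244 and 191 FPKM in EC-labelled libraries, did not pass (-0.16 ± 0.28, adjusted p = 0.739). The list's mean level was 4.18 and 4.21 on the log2(FPKM + 1) scale in HSPC, 6.13 and 5.82 in EC-labelled and 1.87 and 2.21 in DN libraries. With the libraries of 3 dpf alone, 12 of the list were lower, and with all 24 libraries 3 were.

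Macrophage genes were also among those that fell, though the count depended on the fit. Of 30 such genes, 25 were tested, of which 19 fell, against 14.5% of all genes, 1 rose and 5 did not pass. The median was -1.88 (-2.14 with genes listed at 0 at their floor). Of the 25, 8 were listed at 0 in both HSPC libraries and could only be lower there. apoeb, apolipoprotein E of macrophages and microglia, was listed at 0 in both HSPC libraries, against 11.6 and 9.2 FPKM in EC-labelled libraries, which is at least 139-fold lower against a floor of 3 reads over the pair. The DN libraries held apoeb at 49.5 and 58.7 FPKM. lygl1, a goose-type lysozyme, was listed at 0 in HSPC, against 29.8 and 23.6 FPKM in EC-labelled libraries (at least 133-fold lower). acp5a, an acid phosphatase, measured 0 and 0.754 FPKM in HSPC and 38.3 and 7.93 FPKM in EC-labelled libraries (-3.82 ± 0.86), a call lost without EC-labelled replicate 1. mpeg1.1, the perforin-like macrophage gene, measured 2.16 and 3.19 FPKM in HSPC and 2.86 and 9.35 FPKM in EC-labelled libraries and did not pass (-0.80 ± 0.46, adjusted p = 0.251). The gene that rose was csf1rb, given above. The fit of 3 dpf alone called 8 lower and 1 higher, and that of 24 libraries 1 lower.

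Myeloid factors and cytokines also had members that fell. Of 16 myeloid transcription factors tested 6 fell, against 14.5% of all genes, and 10 did not pass (median -0.89, 3 lower in the fit of 3 dpf alone). cebp1, a factor of neutrophil granule genes in zebrafish, measured 3.81 and 2.29 FPKM in HSPC and 17.9 and 15.6 FPKM in EC-labelled libraries (-2.15 ± 0.28). mafba, a factor of macrophage differentiation, measured 1.99 and 3.3 FPKM in HSPC and 13.3 and 14.3 FPKM in EC-labelled libraries (-2.04 ± 0.26), with 53.6 and 59.6 FPKM in DN cells. Of 35 chemokine, cytokine and receptor genes tested 17 fell, against the same 14.5%, none rose and 18 did not pass (median -1.29). Of the 35, 6 were listed at 0 in both libraries of a group, and any at 0 in HSPC could only be lower there. il1b, the inflammatory cytokine interleukin 1 beta, measured 75.6 and 52.6 FPKM in HSPC and 726 and 359 FPKM in EC-labelled libraries (-3.00 ± 0.45, adjusted p = 0.000709). csf3b, a granulocyte colony stimulating factor, measured 3.05 and 3.61 FPKM in HSPC and 119 and 47.3 FPKM in EC-labelled libraries (-4.14 ± 0.53). tnfb, a tumor necrosis factor, measured 2.13 and 1.27 FPKM in HSPC and 76.5 and 36.7 FPKM in EC-labelled libraries (-4.34 ± 0.68), with 14.2 and 119 FPKM in DN cells. The cytokine list had 9 lower genes in the fit of 3 dpf alone and 11 without EC-labelled replicate 1.

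Few lymphoid genes passed the test, beside 16.5% of all genes. The list was made with earlier results of these data known, so its share of calls is not independent of them. Of 27 tested 2 rose, against 2.03% of all genes, none fell, against 14.5%, and 25 did not pass. The median was 0.10, and 0 were called in the fit of 3 dpf alone and with a common FPKM sum. ccr9a, a chemokine receptor of thymus-homing progenitors, measured 299 and 303 FPKM in HSPC and 329 and 326 FPKM in EC-labelled libraries (-0.12 ± 0.48, adjusted p = 0.887). il2rga, the common gamma chain of cytokine receptors, measured 61.2 and 87.5 FPKM in HSPC and 39.3 and 31.2 FPKM in EC-labelled libraries (1.04 ± 0.30). btk, a kinase of B cell and myeloid signalling, measured 54.1 and 52.1 FPKM in HSPC and 27.2 and 24.3 FPKM in EC-labelled libraries (1.02 ± 0.29). Both lay just past the threshold of 1, and both were lost without EC-labelled replicate 1, without EC-labelled replicate 2 and without HSPC replicate 2. Of 8 antigen presentation genes tested 1 rose and 1 fell, and of 11 interferon response genes 3 fell (median -0.62 and -0.69), with 0 called in either list by the fit of 3 dpf alone. irf7, an interferon-regulated factor, measured 32.6 and 18.1 FPKM in HSPC and 41.6 and 64 FPKM in EC-labelled libraries (-1.05 ± 0.32), a call lost without EC-labelled replicate 2 and without HSPC replicate 2. Without EC-labelled replicate 1 the interferon list had 1 lower gene.

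**Figure D3:**
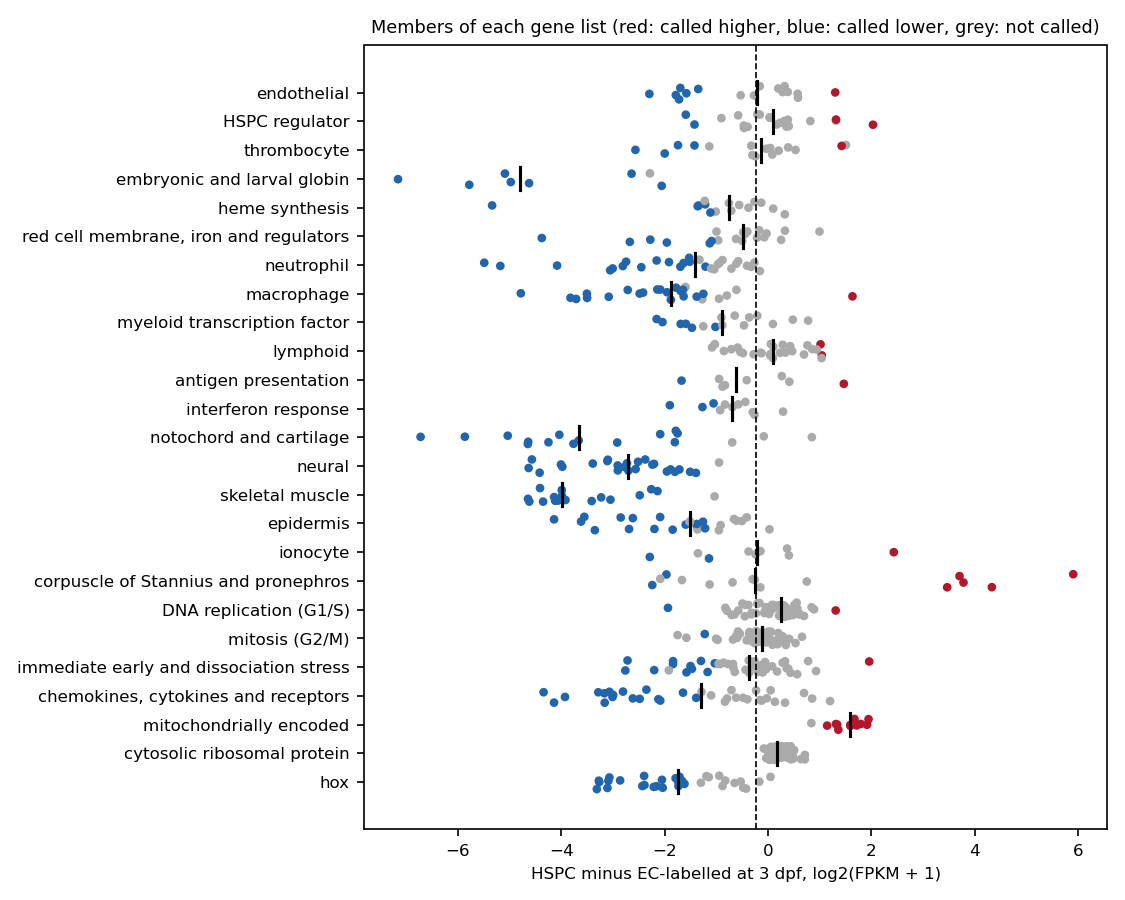
Log2 fold change of each tested member of each gene list, HSPC minus EC-labelled at 3 dpf, with the list's median as a black bar and the median of all genes (-0.22) as a dashed line. Mitochondrially encoded genes lie to the right, and globin, macrophage, cartilage, neural and muscle genes to the left.

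Genes of tissues outside blood and vessels were also among those that fell. Of 24 notochord and cartilage genes 17 were tested, of which 14 fell, against 14.5% of all genes, and 3 did not pass. The median of those tested was -3.66 (-4.64 with genes listed at 0 at their floor), and 6 were listed at 0 in both HSPC libraries. col9a1b, a chain of collagen type IX, was listed at 0 in both HSPC libraries, against 103 and 106 FPKM in EC-labelled libraries, which is at least 2549.5-fold lower. col2a1a, the main cartilage and notochord sheath collagen, measured 3.53 and 0.766 FPKM in HSPC and 165 and 164 FPKM in EC-labelled libraries (-5.87 ± 0.40, adjusted p = 3.66e-06). The DN libraries held col9a1b at 9.58 and 8.61 FPKM and col2a1a at 13.7 and 14 FPKM, so the EC-labelled libraries stood above the DN cells for both. The fit of 3 dpf alone called 11 of the list lower and that of 24 libraries 10.

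Muscle, neural and epidermal genes followed, with other levels in DN cells. Of 30 skeletal muscle genes 17 were tested, of which 16 fell, against 14.5% of all genes, with a median of -3.99. Among those tested, 3 were listed at 0 in both HSPC libraries. actc1b, a muscle actin, measured 10.8 and 4.39 FPKM in HSPC and 299 and 87.9 FPKM in EC-labelled libraries (-4.35 ± 0.49). mylpfb, a fast myosin light chain, was listed at 0 in HSPC, against 32.4 and 17.8 FPKM in EC-labelled libraries. Of 30 neural genes 25 were tested, of which 24 fell, with a median of -2.70 (-2.91 at the floor). Among these, 6 were listed at 0 in both HSPC libraries. sypa, the synaptic vesicle protein synaptophysin, was listed at 0 in HSPC, against 22.8 and 24.9 FPKM in EC-labelled libraries (at least 168-fold lower) and 423 and 476 FPKM in DN libraries. tuba1c, a neuronal tubulin, measured 0.724 and 0.568 FPKM in HSPC and 27.8 and 42 FPKM in EC-labelled libraries (-4.42 ± 0.20). Of 29 epidermal genes 25 were tested, of which 15 fell and 10 did not pass, with a median of -1.51. Among these, 7 were listed at 0 in both HSPC libraries. s100a10b, an S100 family gene of the epidermal list, was listed at 0 in HSPC, against 17.1 and 16.1 FPKM in EC-labelled libraries and 26.8 and 34 FPKM in DN libraries. The fit of 3 dpf alone called 13 muscle, 21 neural and 7 epidermal genes lower, and that of 24 libraries 0 muscle, 8 neural and 1 epidermal.

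Hox genes, which pattern the body axis, followed as well. Of 48 such genes, 32 were tested, of which 20 fell, against 14.5% of all genes, and 12 did not pass. Of the 32, 13 were listed at 0 in both HSPC libraries and could only be lower there. The median was -1.73 (-2.28 at the floor), with 14 lower in the fit of 3 dpf alone and 7 in that of 24 libraries. hoxb9a was listed at 0 in HSPC, against 7.08 and 11.2 FPKM in EC-labelled libraries and 211 and 167 FPKM in DN libraries. Among ionocyte genes 1 of 10 rose (atp1a1a.2), against 2.03% of all genes. Another 2 fell, against 14.5% of all genes, ca2, a carbonic anhydrase, and atp6v1aa, a proton pump subunit. Both of those calls were lost without either EC-labelled library, without HSPC replicate 1 and in the fit of 3 dpf alone, which kept atp1a1a.2.

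These lists were also read as mean log2(FPKM + 1) per library. Neural genes averaged 0.63 and 0.93 in HSPC, 2.87 and 3.47 in EC-labelled and 6.99 and 7.02 in DN libraries. Muscle genes averaged 0.53 and 0.62 in HSPC, 3.17 and 2.30 in EC-labelled and 2.96 and 3.37 in DN libraries. Cartilage genes averaged 0.53 and 0.35 in HSPC, 2.80 and 2.82 in EC-labelled and 1.95 and 1.76 in DN libraries. For each of the 3 lists the HSPC libraries were lowest. There 15 and 14 of the 30 neural genes were listed at 0, against 0 in either EC-labelled library. Zeros were common in HSPC over all genes too. Of all 25067 genes, 13459 and 13274 were above 0 in HSPC, against 18954 and 21136 in EC-labelled libraries. Of the 1907 genes lower in HSPC, 1137 (59.6%) had a DN mean above the EC-labelled mean, against 46.0% of all genes tested. The part of other cells or free RNA in the EC-labelled libraries in these differences was not tested.

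**Figure D4:**
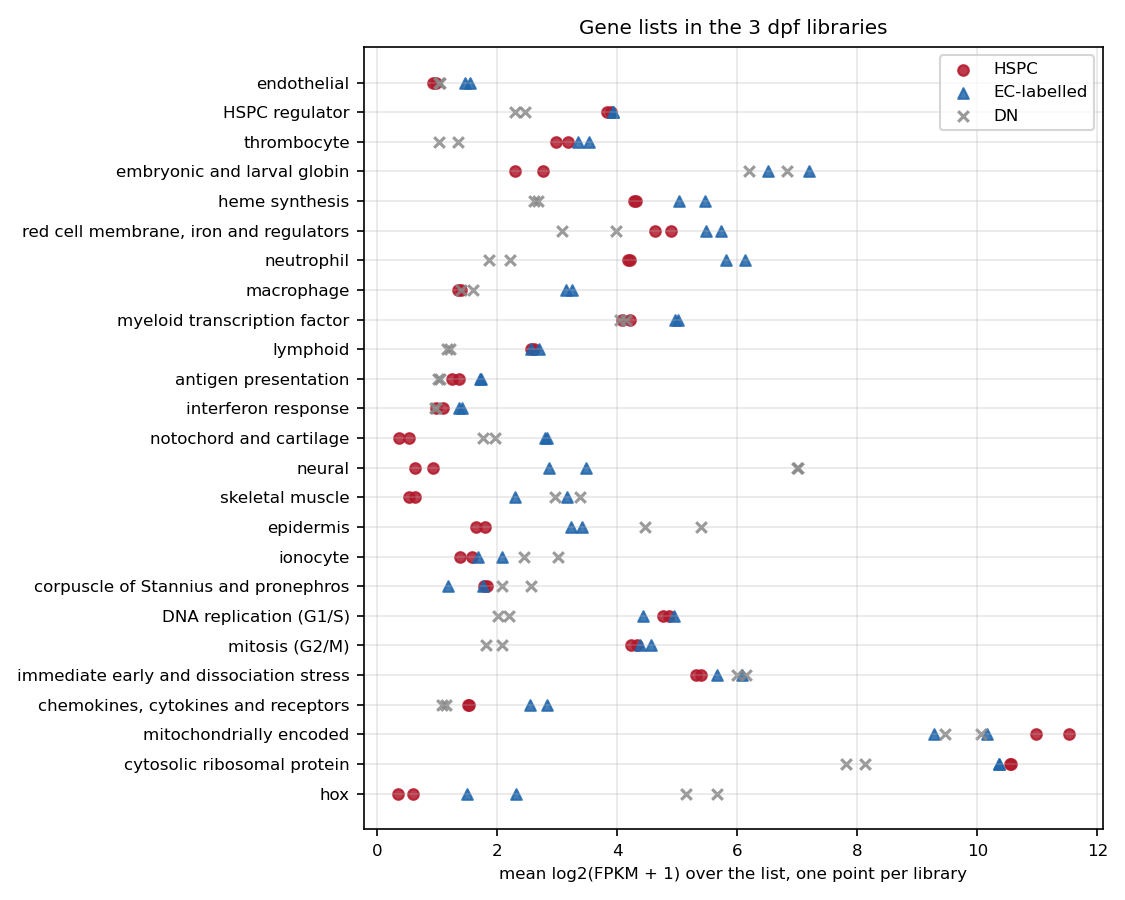
Mean log2(FPKM + 1) of each gene list, 1 point per library for HSPC (red circles), EC-labelled (blue triangles) and DN cells (grey crosses) at 3 dpf. Regulator, lymphoid, replication and mitosis lists coincide in HSPC and EC-labelled libraries, while neural genes run from 0.63 in an HSPC library to 7.02 in a DN library.

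Few growth genes passed the test, beside 16.5% of all genes. Of 58 DNA replication genes tested 1 rose and 1 fell (median 0.26), of 58 mitosis genes 1 fell (median -0.12), and of 79 cytosolic ribosomal protein genes none was called (median 0.17). By limma 25 ribosomal genes had an unadjusted p under 0.05 and 9 an adjusted one, but none changed by 1, the largest change being 0.72 in size, and limma-voom called 0. pcna, the replication clamp, measured 444 and 510 FPKM in HSPC and 255 and 503 FPKM in EC-labelled libraries (0.41 ± 0.29, adjusted p = 0.356). cdk1, the mitotic kinase, measured 42.1 and 36.6 FPKM in HSPC and 36.3 and 47.2 FPKM in EC-labelled libraries (-0.07 ± 0.44, adjusted p = 0.929). rps9 measured 1879 and 1944 FPKM in HSPC and 2041 and 1874 FPKM in EC-labelled libraries (-0.03 ± 0.14, adjusted p = 0.897). Without EC-labelled replicate 2 the replication list had 6 higher genes. hells, a chromatin remodeller, was the replication gene that rose, at 26.5 and 23.3 FPKM in HSPC and 6.45 and 13.6 FPKM in EC-labelled libraries (1.31 ± 0.31), a call lost without EC-labelled replicate 1. With the libraries of 3 dpf alone, 0 replication, 0 mitosis and 0 ribosomal genes were called.

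Stress genes fell more often than they rose, as all genes did (14.5% lower and 2.03% higher). Of 43 immediate early and dissociation stress genes tested 11 fell, 1 rose (nr4a1) and 31 did not pass (median -0.36, 5 lower in the fit of 3 dpf alone, 7 without HSPC replicate 1). hsp70l, a heat shock chaperone, measured 15.1 and 15.2 FPKM in HSPC and 126 and 93.4 FPKM in EC-labelled libraries (-2.76 ± 0.30, adjusted p = 8.76e-05), with 255 and 285 FPKM in DN cells. Reads of near-identical hsp70 copies may have been split between them.

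The difference between the sorts at 3 dpf was then set against that at 36 hpf, as the change in HSPC minus EC. By limma 441 of 15855 genes moved towards HSPC (2.78%) and 1183 moved away from it (7.46%), with a median over all genes of -0.08. Genes of other tissues were among those that moved away, with 18 of 29 epidermal, 17 of 27 muscle, 17 of 28 neural, 10 of 20 cartilage and 18 of 47 hox genes, and 1 neural gene moved towards HSPC. On the same genes the muscle median was -2.48 at 3 dpf and 0.75 at 36 hpf, and the epidermal median was -1.37 at 3 dpf and 0.86 at 36 hpf. The HSPC libraries of 36 hpf held epidermal genes at 8.003 and 8.085 and muscle genes at 6.13 and 6.29, against 6.81 and 7.06 and 5.54 and 5.56 in EC libraries of that stage. Macrophage genes moved away in 10 of 25 cases, with a median of -1.88 at 3 dpf and -0.17 at 36 hpf. For globins 2 of 8 moved away, and the median was -4.80 at 3 dpf and -3.30 at 36 hpf, so they were lower in HSPC at both stages. Of the neutrophil genes 3 of 28 moved away, with medians of -1.42 at 3 dpf and -1.34 at 36 hpf.

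Members of other lists moved towards HSPC, beside 2.78% of all genes. They were 8 of 58 mitosis, 5 of 57 replication, 3 of 28 endothelial, 3 of 26 regulator and 3 of 15 heme synthesis genes. Among red cell membrane, iron and regulator genes 7 of 20 did, with a median of -0.49 at 3 dpf and -1.69 at 36 hpf. In that order of stages, medians were -0.12 and -0.82 for mitosis, 0.28 and -0.68 for replication and -0.06 and -0.63 for regulators. They were -0.76 and -1.52 for heme synthesis and -0.49 and -1.63 for endothelial genes. The whole endothelial list averaged less at 3 dpf in both sorts, at 0.93 and 0.98 in HSPC and 1.46 and 1.54 in EC-labelled libraries. At 36 hpf it averaged 1.58 and 1.42 in HSPC and 3.17 and 2.75 in EC libraries. The 3 endothelial genes that moved were cdh5, egfl7 and notch1b. Their HSPC minus EC was -0.34, -0.57 and 0.20 at 3 dpf, against -2.37, -3.21 and -1.74 at 36 hpf. cdh5 and egfl7 had a mean under 1 FPKM over the 4 libraries of 3 dpf. A move towards HSPC therefore need not mean a rise in HSPC. slc4a1a, at 365 and 439 FPKM in HSPC and 492 and 635 FPKM in EC-labelled libraries at 3 dpf, had been at 26.5 and 33.2 FPKM in HSPC and 388 and 266 FPKM in EC libraries at 36 hpf (difference 2.91 ± 0.48, adjusted p = 0.00352). This gene was named after its values were seen. stc1l was higher in HSPC at both stages, at 717 and 622 FPKM in HSPC and 130 and 148 FPKM in EC libraries at 36 hpf, and its difference grew (3.65 ± 0.74, adjusted p = 0.0106). Of the mitochondrial genes 0 of 13 passed (0 at an unadjusted p under 0.05 and 0 by limma-voom), with medians of 1.60 at 3 dpf and 1.499 at 36 hpf. The largest difference between stages among these genes was 1.98 in size. Without EC replicate 1 of 36 hpf the counts were 93 towards HSPC and 473 away, and without HSPC replicate 2 of that stage 186 and 643. The fit of 24 libraries called 15 and 32.

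**Figure D5:**
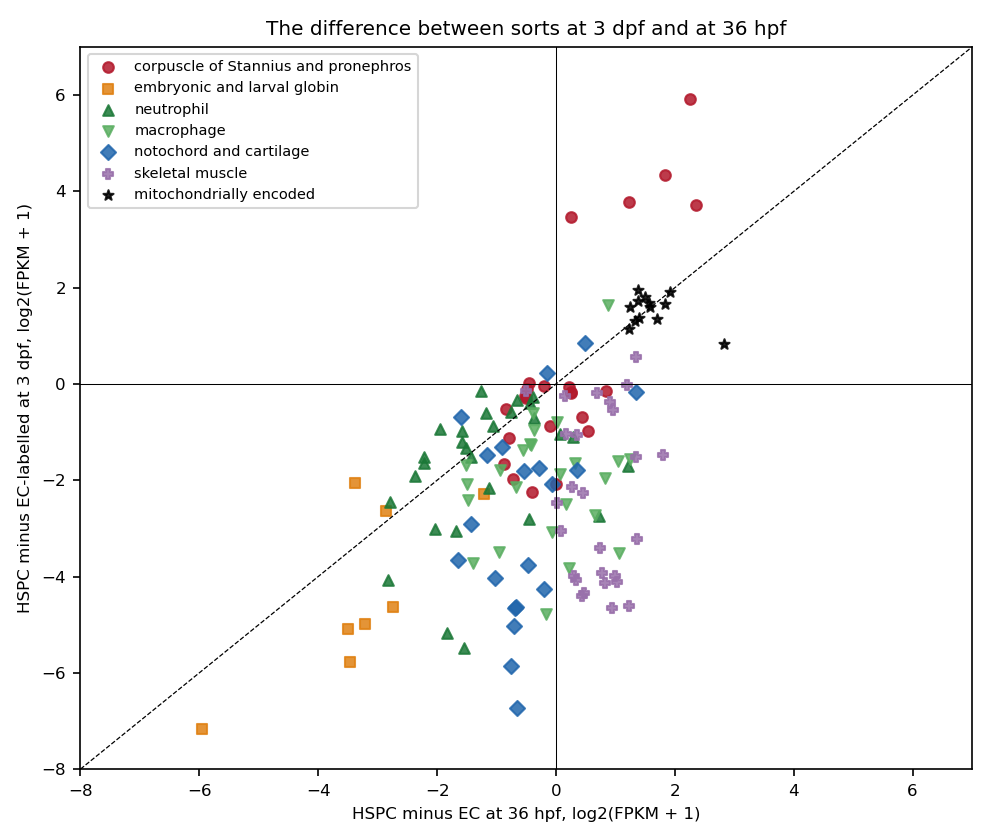
HSPC minus EC-labelled at 3 dpf (y axis) against HSPC minus EC at 36 hpf (x axis), both in log2(FPKM + 1), 1 point per member of 7 gene lists; the dashed line marks equal differences. Mitochondrial genes have medians of 1.60 at 3 dpf and 1.499 at 36 hpf, with a largest difference between stages of 1.98 in size. Muscle genes have a median of -2.48 at 3 dpf and 0.75 at 36 hpf.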

How the data were processed

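The series holds 24 poly(A) RNA libraries in 12 groups of 2, and 14 tail libraries entered the fit. The values are FPKM per gene, deposited by the authors. Build GRCz10 and the tools HISAT, HTSeq, FastQC and DESeq2 are named per the submitters' processing notes, which give neither versions nor roles. A gene's FPKM rise in equal steps of 1 read, and reads were recovered from those steps. Of 23718 genes above 0 in 3 or more libraries, 23718 came out whole to within 0.01 reads. A common factor in a gene's reads cannot be seen in this way. The recovery was tested on simulated data and corrected there, where 1 library's depth had been set wrongly; the reads of the deposited table were the same before and after the correction. The reads serve as depths, as floors (3 reads over a pair) and for limma-voom.

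In R 4.3.3, linear models of log2(FPKM + 1) were fitted with limma 3.58.1 and moderated by eBayes with a trend, using 7 group means without covariates (7 residual degrees of freedom). Genes needed a mean of at least 1 FPKM over the libraries compared. Tests were two-sided and adjusted over all genes tested. The libraries of 4 dpf and of kidney were left out because replicate pairs disagree there. Members, lists and this choice were made with earlier results of these data known. Named genes were, per direction, the 15 called genes with the largest change, a gene symbol, no overlap and a mean of 5 FPKM or more where higher, plus up to 4 members per list. Another 29 genes were named after their values were seen. Among them were myb, runx1, tal1, ccr9a, mpl, fli1a, gata1a, slc4a1a, lyz, mpx, cxcr4b, mpeg1.1 and il1b. Replicate numbers were not treated as pairs in the main fit. Python 3.11.15, pandas 2.3.3, numpy 2.4.6 and matplotlib 3.10.9 were used for tables and figures.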

Additional observations from a re-analysis of the deposited data

Results flagged for a closer look

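The results below were marked because HSPC minus EC at 3 dpf differed from HSPC minus EC at 36 hpf by a test of that difference (limma, Benjamini-Hochberg adjusted p under 0.05 and a size of at least 1). Each value is the difference of the differences on the log2(FPKM + 1) scale, and a positive one means that HSPC stood higher against EC at 3 dpf than at 36 hpf. The fit of 24 libraries called 15 genes in this way in the positive and 32 in the negative direction, and of the 48 genes given below only foxq1a was called there. In that fit the other 47 were no longer called. It uses the same group means, so a gene's difference and its direction could not change, only the estimate of spread.

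Among the genes with the largest increase in HSPC, positive values were found for stc1l (3.65), areg (2.50), cdh16 (2.55), pcsk2 (3.22), cox4i2 (4.14), tbxa2r (2.83), npdc1a (2.14) and lin7a (2.39). Others of those genes did not pass, fgf23 (1.36) and atp1a1a.2 (-0.37) among them. They were also found for the blood and replication genes zfpm1 (1.61), hells (1.92), lmo2 (2.31) and slc4a1a (2.91).

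Negative values were found for the cartilage collagens col9a1b (-6.07), col2a1a (-5.11), col9a2 (-4.33) and col9a3 (-3.96), and for the globins hbae3 (-2.31) and hbbe2 (-1.76). Neutrophil, macrophage and cytokine genes among them were mmp9 (-3.95), lygl1 (-4.61), apoeb (-4.57), csf1ra (-3.01), mafba (-2.06), irf7 (-1.73) and tnfb (-4.52), with ctgfa (-3.63), krt18 (-3.99) and fgl2a (-2.46) beside them.

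Neural genes were sypa (-4.60), sncb (-4.28), tuba1c (-4.12) and zgc:65894 (-3.93), and muscle genes were mylpfb (-5.59), tnni2a.4 (-5.84), ckmb (-4.86) and actc1b (-4.82). Skin and ionocyte genes were s100a10b (-4.82), lye (-5.54), foxq1a (-6.90), cldni (-3.04) and atp6v1aa (-1.84). Heat shock genes were hsp70l (-5.09), hsp70.3 (-4.39) and hsp70.2 (-4.26), and hox genes were hoxb9a (-3.36), hoxb13a (-2.48), hoxd3a (-2.78) and hoxa10b (-2.79). Values for genes listed at 0 in both HSPC libraries of 3 dpf depend on the pseudocount.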

How the results depend on the processing

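At 3 dpf, genes called higher numbered 267 and genes called lower 1907. They were 174 and 1829 with a pseudocount of 0.1, 14 and 181 with all 24 libraries, 57 and 724 with the 6 libraries of 3 dpf, 9 and 143 with only the 4 libraries compared, and 173 and 1101 by limma-voom on recovered reads. Leaving out 1 library gave 128 to 498 higher and 1313 to 2396 lower, with 128 higher without EC-labelled replicate 1 and 498 and 464 without HSPC replicate 1 and 2. No filter, another filter, a common FPKM sum and median-of-ratios scaling (366 and 1597) stayed within 1.5 times. Of the 2174 calls 195 were shared with the fit of 24 libraries, where the sign could not change. With limma-voom 1188 were shared, with the same sign. No named gene reversed under an alternative if it was called in the main fit or in that alternative. Genes called in neither were not counted as reversed, and the sign of small changes such as that of pcna depended on the library left out.

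For the difference with 36 hpf, 441 genes moved towards HSPC and 1183 away. They were 15 and 32 with all 24 libraries, and 385 and 1855 with a pseudocount of 0.1. Leaving out 1 library gave 93 to 661 and 473 to 1654. With the replicate number as a block the counts were 242 and 1859 at 3 dpf and 385 and 1081 for the difference. Deviations of HSPC and EC-labelled replicates at 3 dpf correlated at r = 0.021 across genes, and those of EC-labelled and DN replicates at -0.398. Such correlations cannot decide whether libraries were paired. The cause of these changes was not tested. With 2 libraries a group, 1 library can decide a call, and genes near 0 FPKM rest on few reads.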
